A study of Mus musculus with 6 samples.

Results

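The nuclear factor I (NF1) family consists of 4 genes, *Nfia*, *Nfib*, *Nfic* and *Nfix*, and all 4 carried accessible chromatin in mouse kidney. Intervals of the pooled ATAC-seq peak list were assigned to a member when they overlapped the stretch from 3 kb upstream of its gene start to its gene end in the GENCODE M39 annotation of GRCm39. This gave 259 of the 279569 distinct intervals of the list, with 113 at *Nfib*, 99 at *Nfia*, 36 at *Nfix* and 11 at *Nfic*, out of 21757 protein-coding genes examined in the same way. The median over these genes was 4 intervals. An interval within 1 kb of a transcription start site was present at 77.8% of them and at all 4 members, so accessible chromatin is not particular to the family. The rule uses gene positions and no measured value, but the family was taken up with earlier results of these data known.

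NF1 proteins bind DNA as homodimers or heterodimers through a conserved N-terminal domain and recognise a palindrome of TTGGC and its reverse complement GCCAA. A single arm of the palindrome can also be bound, with lower affinity. In the urinary tract, *Nfia* is known for the development of the ureter and the collecting system. ATAC-seq marks open chromatin by the insertion of Tn5 transposase, so an interval at an NF1 gene marks open chromatin there and is not a measure of binding by the NF1 protein.

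Cortical kidney tissue gave the nuclei of 3 WT and 3 tubule-specific Acly knockout (*Acly* cKO) mice, all with the treatment label Control. By the study's methods the *Acly* cKO mice were Acly fl/fl with Ksp-Cre (Cdh16-Cre), which recombines broadly in renal tubular epithelium. Controls in its animal work were Acly fl/fl littermates without Cre. The libraries used here are labelled WT, and the labels do not say whether these mice carried the floxed alleles. Batches 1 and 2 hold WT libraries alone and batches 4 and 5 *Acly* cKO libraries alone, so the effects of batch and of genotype cannot be told apart. The deposited list is 1 call over a pool of libraries that the list does not name. By the study's methods further WT libraries, deposited earlier and not analysed here, were part of the study, and whether they entered the pool is not known. Depth per library is therefore not known, no value carries an error between replicates, no test could be run, and the genotypes are not separated. In pooled nuclei of cortical tissue, fewer cells with an open site and less opening per cell cannot be told apart. All comparisons below are descriptions of this single list.

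Each interval is described by the fold enrichment of its highest summit, a linear ratio of the read pileup to the background of the caller, and by its rank by -log10 q among all intervals. Across the list, fold enrichment ranged from 1.70 to 884, with a median of 2.55. The tubule marker genes fixed for this comparison all had an interval within 1 kb of a transcription start site (TSS), with 5 of 5 for the proximal tubule, 3 of 3 for the thick limb and distal tubule and 3 of 3 for the collecting duct, as did 3 of 3 podocyte, 3 of 3 endothelial and 2 of 2 stromal markers. Of 3 immune markers 1 had such an interval, and 4 of 5 markers of other organs did. Over all protein-coding genes 77.8% did. The median of the highest fold enrichment near the start was 9.56 for the proximal tubule, 20.8 for the thick limb and distal tubule, 11.5 for the collecting duct and 8.28 for stroma, against 4.52 for podocytes, 2.75 for endothelium, 2.68 for other organs and 0 for immune markers, with genes that had no summit there taken as 0. Over all protein-coding genes this median was 19.7, and of these marker lists only the thick limb and distal tubule lay above it.

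The sequences under the main summits show how the sites differ in base composition and motif content. Shown for each member are the strongest summit inside its region and, where another, its strongest summit in intron 2, with the summit near the canonical *Nfib* start and, chosen after its motifs were seen, a further *Nfib* summit in intron 2. Each is 150 bases of GRCm39 centred on a summit, written 5′ to 3′ on the strand of the gene, and none lies in an untranslated region of an NF1 transcript. Capitals mark matches on either strand to the NF1 hexamer TTGGCA, the CCAAT box (ATTGG on the other strand) or the GC box GGGCGG.
Nfia, upstream of its most distal start, chr4:97660456-97660605, plus strand: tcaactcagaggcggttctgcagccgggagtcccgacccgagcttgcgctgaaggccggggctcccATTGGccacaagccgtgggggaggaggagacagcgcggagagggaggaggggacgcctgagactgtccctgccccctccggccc
Nfia, intron 2, chr4:97757214-97757363, plus strand: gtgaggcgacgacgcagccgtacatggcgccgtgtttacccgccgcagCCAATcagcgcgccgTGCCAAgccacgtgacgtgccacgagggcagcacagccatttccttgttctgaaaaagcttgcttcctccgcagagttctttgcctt
Nfib, 7.52 kb upstream of the canonical start, chr4:82431458-82431607, minus strand: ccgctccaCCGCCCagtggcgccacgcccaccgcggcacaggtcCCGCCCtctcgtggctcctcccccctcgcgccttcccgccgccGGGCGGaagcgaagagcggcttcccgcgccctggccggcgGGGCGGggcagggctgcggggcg
Nfib, 674 bp upstream of the canonical start, chr4:82424615-82424764, minus strand: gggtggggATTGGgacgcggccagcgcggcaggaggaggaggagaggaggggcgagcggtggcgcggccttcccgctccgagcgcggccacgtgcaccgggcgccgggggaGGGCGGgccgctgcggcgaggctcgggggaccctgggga
Nfib, intron 2, strongest, chr4:82365609-82365758, minus strand: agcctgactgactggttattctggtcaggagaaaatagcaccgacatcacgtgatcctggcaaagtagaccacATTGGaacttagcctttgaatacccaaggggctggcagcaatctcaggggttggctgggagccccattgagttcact
Nfib, intron 2, further, chr4:82318378-82318527, minus strand: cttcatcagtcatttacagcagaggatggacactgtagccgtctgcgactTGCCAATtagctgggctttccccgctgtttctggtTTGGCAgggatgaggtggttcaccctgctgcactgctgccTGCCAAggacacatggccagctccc
Nfic, 5.87 kb upstream of the canonical start, chr10:81268829-81268978, minus strand: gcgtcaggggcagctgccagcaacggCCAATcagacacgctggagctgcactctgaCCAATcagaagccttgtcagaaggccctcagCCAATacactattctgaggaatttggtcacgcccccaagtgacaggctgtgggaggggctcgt
Nfic, intron 2, chr10:81247538-81247687, minus strand: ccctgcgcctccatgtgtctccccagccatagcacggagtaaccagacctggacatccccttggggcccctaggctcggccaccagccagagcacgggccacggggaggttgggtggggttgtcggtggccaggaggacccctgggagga
Nfix, intron 7, chr8:85449556-85449705, minus strand: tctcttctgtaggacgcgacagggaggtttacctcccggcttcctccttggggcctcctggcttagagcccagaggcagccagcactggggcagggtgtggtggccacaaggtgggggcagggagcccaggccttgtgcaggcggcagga
Nfix, intron 2, chr8:85464338-85464487, minus strand: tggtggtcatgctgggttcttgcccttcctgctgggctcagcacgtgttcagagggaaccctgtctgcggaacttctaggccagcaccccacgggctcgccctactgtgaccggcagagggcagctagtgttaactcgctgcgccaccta
The distal *Nfib* window was 82.0% G and C and held 4 GC boxes and 23 CpG dinucleotides, the most GC-rich of those shown. The *Nfic* window upstream of the canonical start held 3 CCAAT boxes with 58.7% G and C. The strongest intron 2 window of *Nfib* held a CCAAT box and no NF1 hexamer, and the further one held 3 NF1 hexamers, of which the first overlaps a CCAAT box. The *Nfic* intron 2 window and both *Nfix* windows held none of these motifs.

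*Nfia*, the NF1 gene best known for glial differentiation and for urinary tract malformation when a copy is lost, lies on the plus strand at chr4:97660971-98007111 (ENSMUSG00000028565.20). It spans 346 kb and has 14 annotated transcripts, of which the canonical one has 11 exons and starts at position 97665808. Its 99 intervals ranged in fold enrichment from 1.70 to 65.1 with a median of 2.62. They covered 21.8% of the region. Of these intervals 49 (49.5%) held a single summit, against 53.4% of all intervals of the list. The median width was 446 bp, against 434 bp over the list, and the median fold enrichment of the list was 2.55. In these measures *Nfia* was close to the whole list.

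The strongest *Nfia* interval, chr4:97658884-97668215, reached a fold enrichment of 65.1, above 99.5% of all intervals of the list. It is 9332 bp wide, holds 22 summits, and spans both the most distal start and the canonical start. Its highest summit lay 440 bp upstream of the distal start, which belongs to a single coding transcript, and 5.28 kb upstream of the canonical start. Within 1 kb of the canonical start, which serves 11 of the 14 transcripts, the highest fold enrichment was 13.4. The interval thus peaked at the start used by 1 annotated transcript and not at the start annotated for most of them. The interval also contains the start of E130114P18Rik, a gene on the opposite strand.

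Other strong *Nfia* intervals were intronic. In intron 2, chr4:97755978-97758814 reached 33.1, and its highest summit lay 12 bp from the start of the long non-coding RNA gene Gm19417 on the opposite strand, with a CpG observed-to-expected ratio of 0.814 over 500 bp. In intron 4, chr4:97890410-97893459 reached 28.1 with a CpG ratio of 0.321 and no annotated start. Intron 2 also held chr4:97767258-97769300 at 16.0, over the third annotated *Nfia* start, and intron 10 held chr4:97978930-97981053 at 13.6. Both kinds of site occurred among the strongest 5, those at an annotated start and those far from any.

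*Nfib*, which is required for lung maturation and forebrain development, lies on the minus strand at chr4:82208410-82623987 (ENSMUSG00000008575.19). It spans 416 kb, with 22 transcripts and a canonical start at position 82424016. Its 113 intervals ranged from 1.70 to 70.4 in fold enrichment with a median of 2.75, and covered 31.8% of the region. Of all protein-coding genes 99.7% had fewer intervals and 98.5% were shorter.

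The strongest interval of the family, chr4:82421501-82433378, belonged to *Nfib* and reached 70.4, above 99.6% of all intervals. It is 11878 bp wide with 25 summits. Its highest summit lay 7.52 kb upstream of the canonical start and 98 bp from the start of the long non-coding RNA gene Gm11266, which runs on the opposite strand. The canonical start itself had a summit of 48.3 at a distance of 674 bp upstream, so both ends of the interval were strongly open. The start of Gm57123, another non-coding gene, also lies in it.

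Downstream of the canonical start, *Nfib* had the strongest set of intronic sites in the family. Intron 2 held chr4:82360603-82366864 at 37.6, chr4:82317441-82320584 at 31.5 and chr4:82308777-82312152 at 25.3. Intron 6 held chr4:82261590-82264007 at 30.1. The CpG ratios of these 4 ranged from 0.145 to 0.303, against 0.892 at the strongest *Nfib* interval. No annotated start of another gene lies in any of the 4. Of the 28 *Nfib* intervals with a fold enrichment of at least 5, 27 (96.4%) lay over 1 kb from every annotated *Nfib* start, against 60.0% of such gene and interval pairs over all protein-coding genes. *Nfib* is longer than 98.5% of these genes, and the part of gene length in this share was not tested.

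*Nfic*, known for its role in tooth root formation, lies on the minus strand at chr10:81232020-81291469 (ENSMUSG00000055053.20). It is the shortest member at 59.5 kb, with 16 transcripts and a canonical start at position 81263033. It had the fewest intervals, and these 11 covered 74.6% of its region. Most of the covered sequence lay in 3 broad intervals of 13842 to 23928 bp, while the median width was 756 bp, against 854 bp at *Nfix* and 446 bp at *Nfia*. The median fold enrichment was 3.93.

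The highest value at *Nfic* belonged to a neighbouring gene. The interval chr10:81219528-81234689 reached 47.5, but this summit lay outside the *Nfic* region, 76 bp from the start of Dohh, which encodes an enzyme of hypusine synthesis, and the highest summit of this interval inside the *Nfic* region had a fold enrichment of 3.60. The strongest summit inside the region was in chr10:81259204-81273045, at 47.3, above 98.6% of all intervals. This interval is 13842 bp wide with 34 summits. Its highest summit lay 5.87 kb upstream of the canonical start, and the canonical start had 19.1 within 1 kb. The interval chr10:81235085-81259012, the widest of the family at 23928 bp with 63 summits, reached 34.4 in intron 2. The values at *Nfic* then dropped to 11.8 for chr10:81285647-81287422 and 4.71 for chr10:81276661-81277372.

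*Nfix*, known for the switch from embryonic to fetal muscle and for neural stem cell quiescence, lies on the minus strand at chr8:85426505-85527046 (ENSMUSG00000001911.18). It spans 101 kb, with 16 transcripts and a canonical start at position 85500025. Its 36 intervals covered 64.8% of the region and had a median fold enrichment of 3.27, higher than at *Nfia* and *Nfib*, but none exceeded 18.9. Of all protein-coding genes 43.4% had a lower strongest interval. *Nfix* thus held many intervals of moderate strength, 7 of them above 90% of all intervals, and no site near the maxima of the other members. Among these 7, chr8:85423394-85427482 had its highest summit outside the *Nfix* region, and its highest fold enrichment inside was 7.14.

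The strongest *Nfix* interval, chr8:85447809-85453850 in intron 7, reached 18.9, above 94.0% of all intervals. Its highest summit lay 38 bp from the start of the long non-coding RNA gene G430095P16Rik on the opposite strand. The next, chr8:85423394-85427482, reached 15.9 at a summit beyond the 3′ end of *Nfix*, 12 bp from the start of Trmt1, which encodes a tRNA methyltransferase, and 7.14 was the highest value of this interval inside the *Nfix* region. The interval over the most distal *Nfix* start, chr8:85524517-85528849, reached 15.7 with a CpG ratio of 1.20. Intron 2 held chr8:85463929-85466330 at 13.9 and intron 10 held chr8:85435354-85441802 at 13.7. These 5 values lay within a narrow range, unlike the steeper fall from the strongest site at *Nfia* and *Nfib*.

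**Figure D1:**
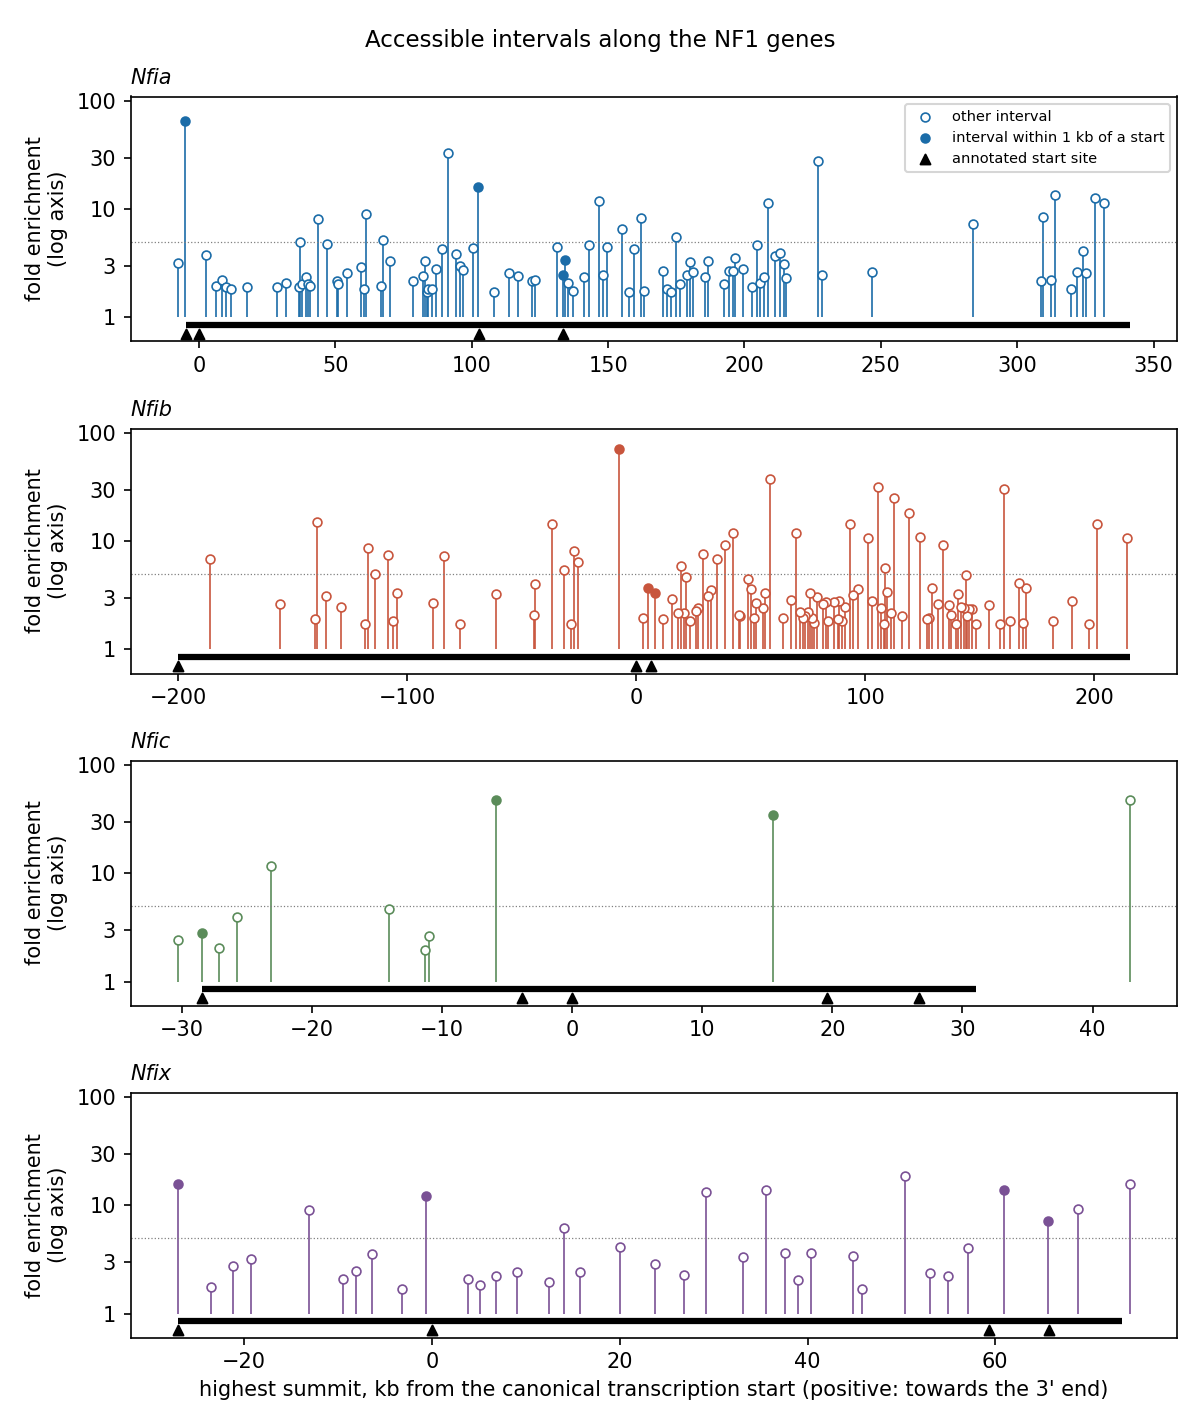
Each panel plots the 259 intervals by gene, with the position of the highest summit in kb from the canonical start on the horizontal axis and fold enrichment on a log axis. Filled circles are intervals within 1 kb of an annotated start, triangles are start sites, the black bar is the gene, and the dotted line marks a fold enrichment of 5. *Nfia* and *Nfib* show a tall site upstream of the canonical start (65.1 and 70.4) and further tall intronic sites, whereas no *Nfix* site passes 18.9.

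Several of the highest summits of the family coincided with starts of other genes. Of the 259 intervals, 9 contained a start of another gene, for 17 other genes in all, 8 of them long non-coding RNA genes and 7 protein-coding. These include Gm69321 and Gm11269 in an *Nfib* interval that reached 6.81 within 1 kb of them, Gm16104, Gm53593 and Mir1191b in the widest *Nfic* interval, and Lyl1, a haematopoietic transcription factor gene, at the 3′ end of *Nfix*. The interval that reached Dohh also holds starts of Smim24, Mir6913, Gm48551 and Gm48552. ATAC-seq signal has no strand, so the share of an interval that belongs to each of the overlapping genes was not tested. How many intervals at other genes contain a start of another gene was not counted. Whether 9 of 259 is unusual is therefore not known.

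By the number of strong intervals the family was close to the whole list. A fold enrichment of at least 5 was reached by 60 of the 259 intervals (23.2%), against 24.5% of all intervals. By gene this was 17 at *Nfia*, 28 at *Nfib*, 4 at *Nfic* and 11 at *Nfix*. The *Nfic* count includes chr10:81219528-81234689, which passed only by its summit near Dohh, outside the region, and reached 3.60 inside it. Around that threshold, the nearest values were 4.98 at *Nfia* and *Nfib* below it and 5.17 at *Nfia* above it. A q under 1e-05 was reached by 164 intervals (63.3%), against 54.9% of all. The median fold enrichment of the family was 2.75, against 2.55. The median width was 614 bp, against 434 bp, and 40.5% held a single summit, against 53.4%. The family was thus close to the whole list in strength, while *Nfia*, *Nfib* and *Nfix* held more intervals than 99.5%, 99.7% and 95.1% of protein-coding genes. These 3 genes were also longer than 97.9%, 98.5% and 88.3% of them.

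**Figure D2:**
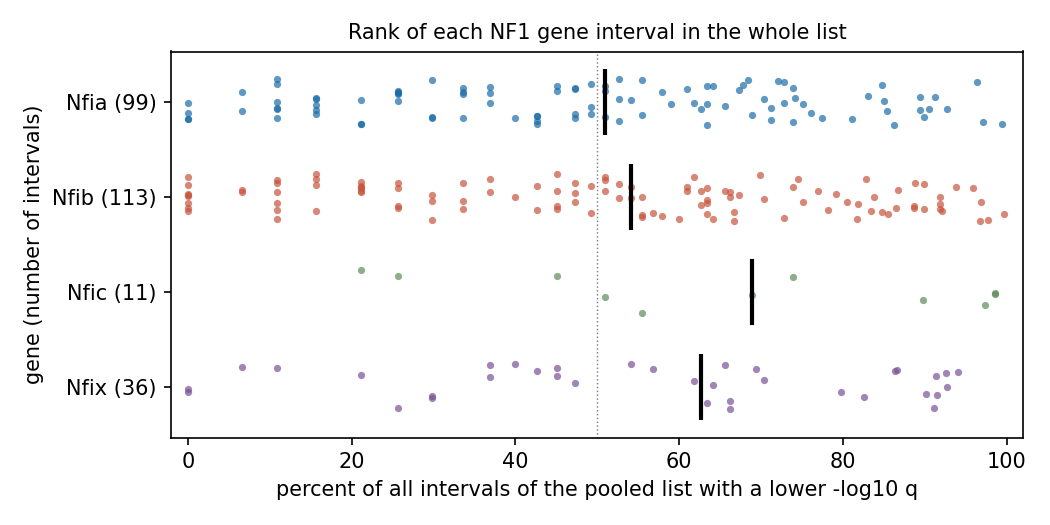
Each point is 1 interval, placed by the percent of all 279569 intervals with a lower -log10 q, and the vertical bars are the medians of each gene. The intervals of *Nfia* and *Nfib* spread over the whole range, with their strongest at 99.5% and 99.6%, while the strongest at *Nfix* is at 94.0%.

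The start sites of the members were compared next, because each gene has several alternative first exons. Starts within 1 kb of each other were joined, which gave 4 sites at *Nfia*, 3 at *Nfib*, 5 at *Nfic* and 4 at *Nfix*. All but 1 lay in an interval. The exception was the most distal *Nfib* start, at position 82623987, the far 5′ end of the gene and annotated for 1 coding transcript, which had 0 summits within 1 kb. All 4 genes had an interval within 1 kb of a start, as did 77.8% of protein-coding genes.

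Taking the highest summit within 1 kb of any start of the gene, *Nfia* had a fold enrichment of 65.1, higher than at 92.3% of protein-coding genes. *Nfib* followed with 48.3 (81.2%), then *Nfic* with 26.9 (58.2%) and *Nfix* with 15.7 (45.9%). The median over all protein-coding genes was 19.7. *Nfia*, *Nfib* and *Nfic* lay above this median and *Nfix* below it. Without replicates, whether neighbours in this order differ could not be tested.

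The canonical start was the strongest start only at *Nfib*. At *Nfia* it had 13.4, against 65.1 at the distal start and 16.0 at the third start, in intron 2. At *Nfic* it had 19.1, against 26.0 at the start located 3.84 kb upstream and 26.9 at a start located 19.6 kb downstream. At *Nfix* it had 12.2, against 15.7 at the distal start located 27.0 kb upstream. The weakest sites with a summit were the most distal *Nfic* start at 2.82, the third *Nfib* start at 3.14 and the fourth *Nfia* start at 3.40. The most distal start was thus the strongest at *Nfia* and *Nfix*, weak at *Nfic* and without a summit at *Nfib*.

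Base composition also differed among the starts. The CpG observed-to-expected ratio over 1 kb was 1.09 at the distal *Nfix* start and 0.934 at the canonical *Nfia* start, and only 0.355 at the canonical *Nfix* start. At *Nfib* it was 0.833 at the canonical start and 0.236 at the distal start that had no summit.

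**Figure D3:**
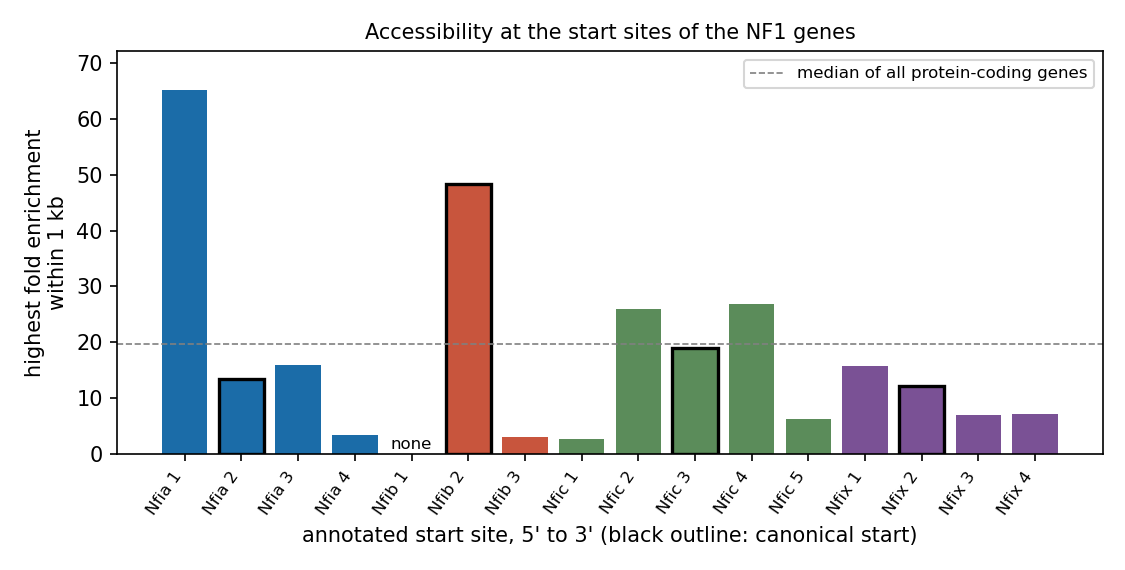
Bars show the highest fold enrichment within 1 kb of each of the 16 start sites, ordered 5′ to 3′ within each gene and coloured by gene. Black outlines mark canonical starts, and the dashed line is the median of all protein-coding genes (19.7). The distal *Nfia* start (65.1) and the canonical *Nfib* start (48.3) are the tallest, and the distal *Nfib* start has no summit.

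The rule takes intervals from 3 kb upstream of a gene to its end, so lying within the genes was set by the rule. Most of these intervals lay away from starts. Of the 259 intervals, 14 lay within 1 kb of an annotated start of the gene (4 at *Nfia*, 3 at *Nfib*, 3 at *Nfic* and 4 at *Nfix*), which is 4.04% at *Nfia* and 27.3% at *Nfic*. Over all protein-coding genes, 19.0% of gene and interval pairs did. The members span 59.5 to 416 kb, against a median gene length of 19.2 kb. The part of gene length in these shares was not tested. By the position of the highest summit, 208 intervals (80.3%) lay in an intron of the canonical transcript, and a further 39 (15.1%) lay in an intron of a longer transcript upstream of the canonical start. Of the rest, 1 lay in a coding exon and 2 in a 3′ UTR. The share of introns in the sequence of these genes, or among intervals of other genes, was not counted. These positions are therefore not read as a trait of the family.

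Promoter intervals and the others differed in form. The median fold enrichment was 13.0 for the 14 promoter intervals and 2.62 for the other 245. The median width was 3226 bp against 579 bp, and wide intervals reach a start more often. The median GC content over 500 bp was 58.8% against 45.6%, and the median CpG ratio 0.415 against 0.184. Fold enrichment, GC content and CpG ratio are those of the highest summit, which lay within 1 kb of a start in 8 of the 14. At the strongest *Nfib* interval it lay 7.52 kb from the nearest *Nfib* start. These contrasts are therefore between intervals that reach a start and others, not of start sites alone. A CpG ratio over 0.6, a usual mark of CpG islands, was found at 8 intervals, against 4.94% of all intervals. Of these 8, 4 were promoter intervals, among them the *Nfib* interval with its highest summit near the Gm11266 start. The others included the Gm19417 and Dohh sites described above. Of the 60 intervals with a fold enrichment of at least 5, 51 (85.0%) lay over 1 kb from any start of their gene, against 60.0% of such pairs over all protein-coding genes. The members are longer than 79.5% (*Nfic*) to 98.5% (*Nfib*) of protein-coding genes, and the part of gene length in this share was not tested. The 51 include the intervals with their highest summits at Dohh and Trmt1, outside the *Nfic* and *Nfix* regions.

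Intron 2, which follows the exon that encodes most of the DNA-binding domain, held the largest number of these sites at *Nfia*, *Nfib* and *Nfix*. It contained 63 of the 99 *Nfia* intervals, 58 of the 113 at *Nfib* and 17 of the 36 at *Nfix*. It is also long, at 173 kb, 115 kb and 43.8 kb, so the densities were 36.5, 50.6 and 38.8 intervals per 100 kb. Intron 3 was denser still, with 43.2 per 100 kb at *Nfia* and 63.0 at *Nfib*, over 44.0 kb and 23.8 kb. At *Nfia*, introns 6 and 7 were sparse, with 1 interval each in 20.6 kb and 21.3 kb. The longest stretches without an interval were 36.4 kb at *Nfia*, from 247 kb to 283 kb downstream of its canonical start, and 30.1 kb at *Nfib*, between its distal and canonical starts. At *Nfic* and *Nfix* no gap exceeded 8.27 kb and 3.91 kb.

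Density was compared with other genes over the gene body more than 3 kb from any start, for the 8097 protein-coding genes with at least 20 kb of it. *Nfix* had 37.3 intervals per 100 kb, higher than 86.4% of these genes. *Nfia* had 27.6 (75.2%) and *Nfib* 27.5 (75.0%), and *Nfic* had 14.5 (53.6%), against a median of 12.8. The order changed when the covered share of the body was used, because *Nfic* holds a few very wide intervals. Coverage was 65.4% at *Nfic* (higher than at 96.7% of genes), 59.2% at *Nfix* (95.8%), 30.9% at *Nfib* (85.1%) and 18.6% at *Nfia* (73.5%), against a median of 7.15%. All 4 members exceeded the median on both measures.

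The transcription factor genes *Hnf4a* and *Hnf4g*, which belong to the HNF4 family of nuclear receptors, served for comparison. Near their starts the highest fold enrichments were 25.7 at *Hnf4a* and 26.1 at *Hnf4g*, below those of *Nfia* (65.1) and *Nfib* (48.3), above that of *Nfix* (15.7) and close to that of *Nfic* (26.9). In the gene body, *Hnf4a* had 29.7 intervals per 100 kb with 55.2% of bases covered, and *Hnf4g* had 21.0 with 12.4%. Both densities lay between those of *Nfic* and *Nfix*. *Nfic* and *Nfix* had a larger share of the body covered than either HNF4 gene, and *Hnf4g* had less covered than any NF1 gene.

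**Figure D4:**
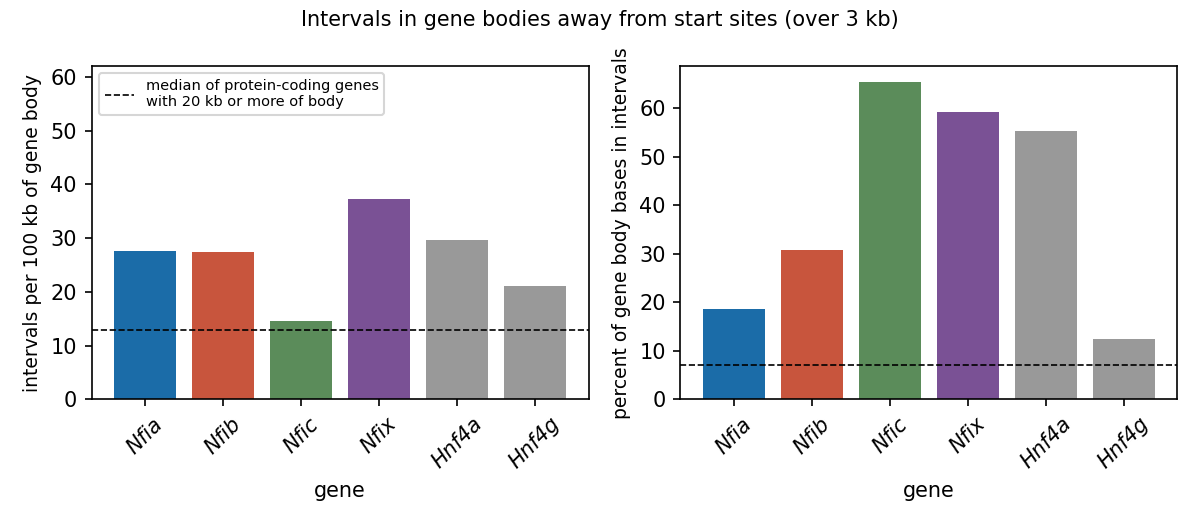
The left panel shows intervals per 100 kb of gene body and the right panel the percent of gene body bases inside intervals, counting only sequence over 3 kb from any start. Coloured bars are the NF1 genes, grey bars the HNF4 genes, and dashed lines the medians over 8097 genes (12.8 and 7.15%). *Nfic* is the lowest NF1 gene on the left at 14.5 and the highest on the right at 65.4%.

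To see whether the intervals at the NF1 genes hold the NF1 motif themselves, the 200 bp around each highest summit were searched on both strands. The full palindrome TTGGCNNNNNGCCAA was found in 0 of 259 windows, against 0.0712% of all intervals. With the windows taken as independent, the Wilson 95% interval of a count of 0 reached up to 1.46%. The hexamer TTGGCA was found in 33 windows (12.7%), against 13.7% of all. These were 16 at *Nfib*, 13 at *Nfia*, 4 at *Nfix* and 0 at *Nfic*, and none was in a promoter interval. Among the 60 intervals with a fold enrichment of at least 5, 11 (18.3%) held the hexamer, against 15.6% of all such intervals. The shares at the NF1 genes were thus near those of the whole list.

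Over whole intervals, 2 of 259 (0.772%) held a palindrome, against 0.155% of all intervals, whose median width is smaller. Both are among the *Nfia* intervals, as the 2 strongest there. They are shown with 18 bases on either side and the palindrome in capitals.
Nfia, 1.06 kb upstream of the canonical start, chr4:97664725-97664775, plus strand: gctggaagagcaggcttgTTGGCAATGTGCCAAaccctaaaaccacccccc
Nfia, intron 2, chr4:97757478-97757528, plus strand: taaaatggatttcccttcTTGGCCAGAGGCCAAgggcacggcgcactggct
The site in intron 2 lay 32 bp from a summit with a fold enrichment of 21.2 and 214 bp from the highest summit of that interval. The other lay 206 bp from its nearest summit, of 6.48. In all, the *Nfia* region contains 3 palindromes in 349 kb, of which these 2 are in intervals, the *Nfib* region contains 1 in 419 kb, outside every interval, and the *Nfic* and *Nfix* regions contain 0.

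Other motifs were searched in the same windows. The GC box GGGCGG was found in 12 (4.63%), against 8.15% of all intervals, and 3 of the 12 were promoter intervals. The CCAAT box was found in 59 (22.8%), against 22.8% of all, and the AP-1 motif TGANTCA in 31 (11.97%), against 12.37%. Of the AP-1 windows 19 were at *Nfib* and 8 at *Nfia*. The exact HNF4 motif CAAAGTCCA was found in 0 windows, against 0.884% of all intervals. The CCAAT box and the reverse complement of the NF1 hexamer share letters, so some matches overlap.

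Finally, 10 genes known from other tissues as NF1 targets or partners were examined. All 10 had an interval within 1 kb of a start, against 77.8% of protein-coding genes. The highest fold enrichment near a start was 74.2 at *Ezh2*, the H3K27 methyltransferase gene that NFIB represses in the brain, 48.4 at *Hes1*, a Notch effector, 37.8 at *Zbtb16* and 37.7 at *Apcdd1*. It was 29.8 at *Pck1*, the gluconeogenic enzyme also made by the proximal tubule, 17.5 at *Sox9* and 17.4 at *Fabp7*. The glial gene *Gfap* had 8.05, the collagen gene *Col1a2* 7.33 and the liver gene *Alb* 2.95. These values were higher than at 27.8% (*Alb*) to 95.8% (*Ezh2*) of protein-coding genes, with a median of 23.7 against 19.7 for all. *Zbtb16* also resembled the long NF1 genes in holding 101 intervals.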

How the data were processed

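ATAC-seq libraries of 3 WT and 3 Acly cKO mouse kidneys were grouped by their labels. The authors aligned reads to mm39 (GRCm39) with Bowtie2 2.3.4.3, called peaks with MACS3 3.0.0 at a q of 0.05 and filtered them with bedtools 2.29.1. Per the submitters' processing notes deepTools 3.5.1 was also used. The deposited list gives for each summit the fold enrichment, a linear ratio over the authors' background, the -log10 q, a score derived from it by the authors' caller, and the summit's offset from the interval start. The score was not used. The deposited list before filtering (750624 summits) served as an alternative. Fold enrichments were multiples of a step of 0.0655 in all 279569 intervals (within 0.05 of a step), and ordering by fold or by q gave 0 breaks in order.

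Summits (749750) with the same chromosome and limits were joined as an interval, which was given the fold and q of its top summit, ranked on q. Coordinates are 1-based on GRCm39, where 80.0% of 19101 genes had a summit within 1 kb of a start, against 37.3% in GRCm38 coordinates. Promoter means within 1 kb of a TSS. Percentiles are over all intervals or all protein-coding genes. Sequences were read from the GRCm39 genome.

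The members and lists were chosen with earlier results of these data known. Named were the members with their 5 strongest intervals, their starts, other genes whose starts fall in their intervals, and the preset target, HNF4 and marker lists, some entries of which are not reported here. The 20 preset alternatives, and 2 added after seeing the data, varied the region, thresholds, start sets and motif windows. No test was run, as no column belongs to a single library. Scripts were checked on simulated data. Python 3.11.15, numpy 2.4.6, pandas 2.3.3, pysam 0.24.0 and samtools 1.23.1 were used.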

Additional observations from a re-analysis of the deposited data

How the results depend on the processing

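Of 37 values under alternative settings, 23 stayed and 14 moved. Those that stayed include the strongest interval of each gene when ranked by fold enrichment instead of q. These could not move, because fold and q gave the same order. Counts and densities were taken as moved past 1.5 times, the palindrome share outside the Wilson 95% interval of its reported value, and a strongest fold enrichment at any change. The 259 intervals became 164 with a q under 1e-05 and 60 with a fold enrichment of at least 5, and 958 when every summit was counted, in the filtered and in the unfiltered list alike. The 14 promoter intervals became 8 with starts of protein-coding transcripts, 4 with canonical starts, 28 within 3 kb and 8 by the highest summit alone. With 10 kb on either side the strongest interval at *Nfix* rose from 18.9 to 27.6, at a summit 19 bp from the start of Nacc1. Counting only summits inside the gene region, a setting chosen after seeing the data, moved *Nfic* from 47.5 to 47.3, and left 257 intervals. The palindrome share moved from 0 to 1.93% (5 of 259) with 1 mismatch, against 1.45% of all intervals. With a q under 1e-05 the gene-body density was 17.5 per 100 kb at *Nfib*, 15.6 at *Nfia* and 23.1 at *Nfix*, so *Nfix* stayed highest.

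No paired analysis was possible because the result comes from no test and no column belongs to a single library, and the same holds for omitting single replicates. The depth of the pool is unknown. Counts follow the thresholds above, and the signal of an interval that spans several genes is not divided among them.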
